A study of Mus musculus with 4 samples.

Results

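The weakest Egr2 regions found only in thymocytes after a strong T cell receptor (TCR) signal were described from the deposited peak lists of an Egr2 chromatin immunoprecipitation and sequencing (ChIP-seq) study in mouse. A region belonged to this set when its ChIP tag density at the summit, the authors' height value, was under 13, its control density was under 3, and no region of the NKT list overlapped it by 1 bp or more. The set held 3005 of the 4216 injected-thymocyte regions, or 71.3% of that list, out of 6212 regions in both lists. Of the 3187 injected-thymocyte regions with a density under 13, 42 overlapped an NKT region, and a further 140 had a control density of 3 or more. Density, control density and overlap chose the members, so these values are a description and were not tested. Of all injected-thymocyte regions 3861, or 91.6%, overlapped no NKT region. That share rests on the same overlap and nothing is read from it.

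Both Egr2 libraries carry the strain label Va14tg, a line with a transgenic Vα14 TCR α chain that enriches for natural killer T (NKT) cells; the promoter of the transgene is not given in the labels. The injected-thymocyte library came from 3 to 5 mice that had received 500 µg of an antibody against TCRβ, with thymocytes taken after 24 hours, and the NKT library from cells enriched with CD1d tetramers loaded with αGC from an average of 10 mice. Each used 20000000 cells and the same antibody against Egr2 (Krox-20), and animals were pooled. The series also has an input DNA and an IgG library, both labelled Va14tg. There was 1 library per condition and no expression data, so the cell labels could not be checked against markers, no difference has a replicate check, and no p-value is given. Intervals below cover counting error only and treat regions of 1 library as independent. Tags from PCR-amplified libraries without molecular identifiers are not independent molecules.

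Egr2 is a zinc-finger transcription factor of the early growth response family that binds GC-rich DNA. T cells and thymocytes induce it when the TCR is engaged, through calcineurin and MAP kinase signalling, and its activity is modulated by NAB corepressors. In the thymus it is known for roles in selection and in the development of NKT cells. In ChIP-seq a bound site shows tags of the forward strand on one side of the summit and tags of the reverse strand on the other, and the offset between them is given in the lists as a strand shift.

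The members were small, low regions that piled up at the lower end of the list. Their median density was 10.8 (quartiles 10.4 and 11.4, lowest 10.03), and 1058 of the 3005 lay under 10.5 while 150 lay at 12.5 or more. Densities fell on steps of 0.0822. The lowest step held 191 members and the highest step below the limit, 12.99, held 27. The first step above the limit, 13.07, also held 27 regions of any kind, so the limit divides a continuous tail and not separate classes. A median member was 141 bp wide (quartiles 123 and 174) and rested on 15 ChIP tags (quartiles 14 and 17) and 2 control tags. A count of 15 tags has an exact Poisson 95% interval of 8.40 to 24.7, which is wider than the whole difference between the lower and the upper quartile of the members.

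**Figure D1:**
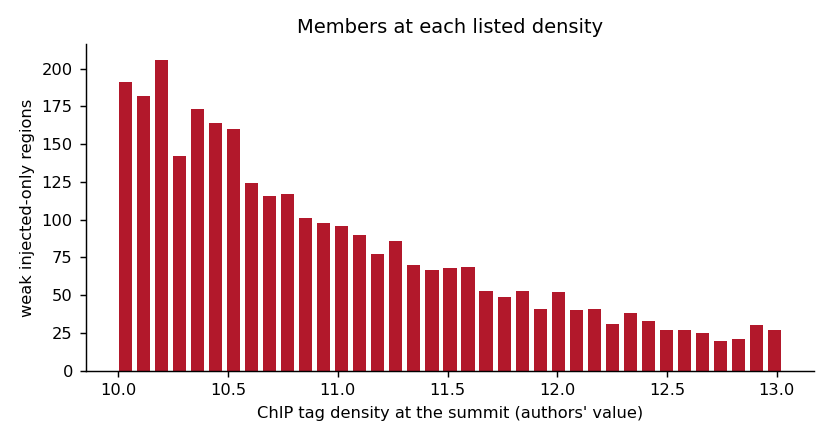
Number of weak injected-only regions (vertical axis) at each listed ChIP tag density (horizontal axis, authors' value at the summit, no unit given). Counts fall from 191 at the lowest density of 10.03 to 27 at 12.99, with no gap before the limit of 13.

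The limit separated neighbouring density steps. Of the 27 members at 12.99, the 5 with most ChIP tags were chr11:68901827-68902147 with 33 ChIP tags and no control tag, chr11:78349748-78350047 with 30 and none, chr17:33262650-33262840 with 25 and 8, chr9:107242959-107243183 with 24 and none, and chr4:128482292-128482498 with 23 and none. The 5 regions with most ChIP tags at 13.07 were chrX:166414937-166415495 with 60 ChIP tags and 35 control tags, chr15:82798881-82799425 with 43 and 1, chr17:45732595-45732994 with 28 and none, chr15:95583087-95583433 with 28 and 5, and chr11:80196898-80197190 with 28 and 1. At the control limit, the nearest members were chr2:172659685-172659793 with a control density of 2.99 and chr3:135834125-135834230 and chr3:135427598-135427761 with 2.98. The nearest regions kept out, chr16:20012936-20013065, chr9:97589199-97589319 and chr7:85385249-85385368, had 3.00.

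Strand shift, which the rule did not use, had medians 1 bp apart at weak and tall injected-only regions, with overlapping intervals. The median was 86 bp in the members (quartiles 78 and 95, exact order-statistic 95% interval of the median 86 to 87) and 87 bp (85 to 88) in the 665 regions with a density of 13 or more, a control density under 3 and no NKT overlap. It was 87.5 bp (86 to 90) in the 302 equally tall regions shared with NKT cells. Of the members, 96.5% (95.7% to 97.1%, exact binomial) had a shift of 60 bp or more, against 95.9% (94.1% to 97.3%) of the tall injected-only regions. The intervals overlapped. The 1368 weak NKT-only regions, chosen by the same limits in the other list, had a median of 42 bp (41 to 43), and 11.2% (9.56% to 12.97%) of them reached 60 bp. The weak regions of the 2 lists thus differed in shift by far more than the weak and tall regions within the injected-thymocyte list. Shifts of the other NKT regions were not summarised as a group. Some NKT regions nearest to a named member overlapped a tall injected region. There the NKT and injected shifts were 39 and 92 bp at chr2:172879376-172879584 and 57 and 93 bp at chr15:38230804-38231206. They were 42 and 112 bp at chr11:68908247-68908590, 58 and 71 bp at chr9:109735429-109735637, and 87 and 72 bp at chr1:132612538-132612875. The labels give both libraries the same selected fragment range of 150 to 400 bp. With 1 library each, a difference between the cell populations cannot be told apart from a difference between the 2 libraries.

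**Figure D2:**
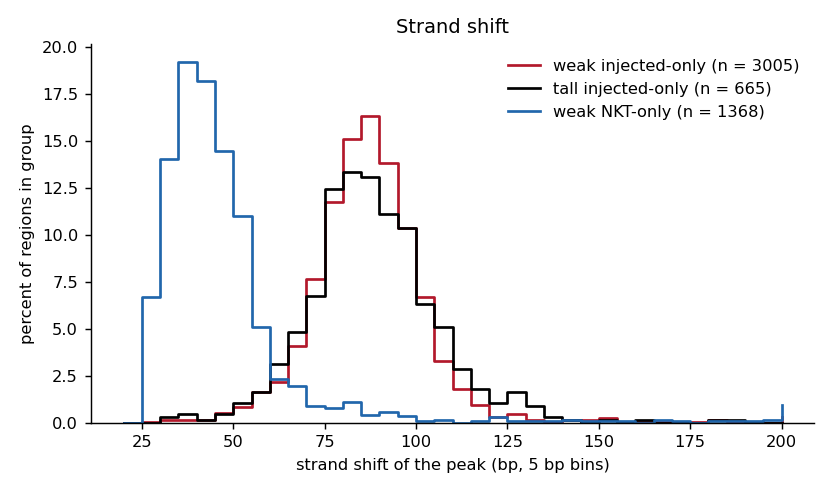
Percent of regions (vertical axis) in each 5 bp bin of strand shift (horizontal axis) for weak injected-only, tall injected-only and weak NKT-only regions. Weak and tall injected-only regions peak together around medians of 86 and 87 bp, and weak NKT-only regions around 42 bp.

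The shift did not move with height inside the set. Its median lay between 85 and 88 bp in all 6 density classes from 10 to 13, and between 84 and 88 bp in all 6 classes of distance to a tall region. It moved with the number of ChIP tags: members with under 14 tags had a median of 88 bp (quartiles 82 and 94), and those with 22 or more a median of 77 bp (61.2 and 101). These tag-rich members were wider, at a median of 268 bp against 117 bp, and the correlation between the strands was lower, at 0.738 against 0.942. The shortest peak-line shifts were 26 bp at chr9:77758478-77758709 and 30 bp at chr11:116250606-116250823 and chr9:110110864-110111088, with strand correlations of 0.0104, 0.188 and 0.401. A shift of 200 bp, the highest listed, occurred in 9 members. Among them were chr7:120656880-120657257, chr1:90195724-90195839 and chr5:122580656-122580882, with correlations of -0.132, 0.525 and 0.111. Peak lines list no shift under 26 bp. On the region lines, 110 members, or 3.66% (3.02% to 4.40%), had a shift under 0, against 7.37% (5.50% to 9.62%) of tall injected-only regions.

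Control tags were denser in the members than in the other injected-thymocyte groups under the same control limit. The members held 7460 control tags over 482608 bp, or 15.5 per kb, while the tall injected-only regions held 5.93 per kb and the tall shared regions 4.78 per kb. The 38 weak regions that overlapped an NKT region held 6.51 per kb, close to the tall regions. The weak NKT-only regions, from the other list, held 27.9 raw control tags per kb, and 2.92% (2.10% to 3.96%) of them had no control tag. The control library, its depth and the scaling are not known for either list. Control tags of the 2 lists are therefore not on a known common scale. ChIP tags per kb were 99.4 in members, 118 and 158 in the tall groups and 82.9 in the weak shared regions. No control tag was counted in 12.4% (11.3% to 13.6%) of members, against 33.8% (30.2% to 37.6%) of tall injected-only regions, although these were wider, with a median of 263 bp, and 26.3% (13.4% to 43.1%) of the weak shared regions. The same number was the control limit in all of these groups, but control density was part of the rule, so these values are given without a test. Within the set, regions without a control tag were also more frequent at higher density: 10.02% at 10 to under 10.5 and 20.7% at 12.5 to under 13.

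The 38 weak injected regions that did overlap an NKT region had more tags at the same height. At a density of 10 to under 11, members had a median of 15 ChIP tags and a width of 136 bp, and the 16 shared regions 20 tags and 259.5 bp. At 11 to under 12 the members had 16 tags and 145 bp, and the 7 shared regions 20 tags and 273 bp. At 12 to under 13 the values were 17 tags and 156.5 bp against 24 tags and 264 bp in 15 shared regions. Tag ranges overlapped in every class, for example 8 to 68 in members and 12 to 30 in shared regions at 10 to under 11. A wider region also has more positions at which an overlap can fall, and the part of width in the difference was not tested.

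Most members lay far from any tall site. The nearest injected-thymocyte region with a density of 13 or more, of which there were 1029 at any control density, was a median of 981 kb away from summit to summit (interval 928 to 1052 kb, quartiles 325 and 2386 kb). Only 62 of 3005 members, or 2.06% (1.59% to 2.64%), had one within 10 kb. Uniform placement between the first and last injected-thymocyte summit of each chromosome would put 0.779% there, or 23.4 regions. This value is the part of that span within 10 kb of a tall summit, weighted by the members per chromosome, and was computed from lengths without random draws. The observed share was thus 2.65 times (2.04 to 3.39, from the interval of the share) the uniform one. That placement treats every position of the span alike, whether or not a region could be listed there. A ratio above 1 therefore measures departure from uniform placement only. The ratio fell with distance, from 5.33 within 1 kb (13 members) to 3.12 within 5 kb, 1.63 within 50 kb, 1.46 within 100 kb and 1.12 within 1000 kb. At that distance 50.4% of members had a tall region within 1000 kb, against 44.9% under uniform placement.

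Weak NKT-only regions came from the other library and were set beside the members for these distances. They were chosen to overlap no injected-thymocyte region, so their closest distances to tall regions were limited in advance. The uniform share does not allow for this. Their smallest distance was 622 bp, against 181 bp in members. Of the weak NKT-only regions, 15 of 1368, or 1.10% (0.615% to 1.80%), lay within 10 kb of a tall injected region. That was 1.42 times (0.799 to 2.34) the uniform share of 0.770%. The interval of this ratio overlapped that of the members, and it included 1. Within 100 kb the ratios were 1.23 (1.02 to 1.46) and, for members, 1.46 (1.31 to 1.62). The 38 weak shared regions had 3 within 10 kb, 7.89% (1.66% to 21.4%), and 12 within 100 kb, 31.6% (17.5% to 48.7%), against 10.3% (9.22% to 11.4%) of members. The intervals at 100 kb did not overlap. The groups also differed in tags: 57.9% of the weak shared regions had 22 or more ChIP tags, against 6.19% of members. Of the 186 members with 22 or more tags, 27.4% lay within 100 kb, which is inside the interval of the shared regions. The part of tag number in the difference was not tested. Tall regions themselves were closer together: 79 of 1029, or 7.68% (6.13% to 9.48%), had another tall region within 10 kb, 9.02 times the uniform share.

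**Figure D3:**
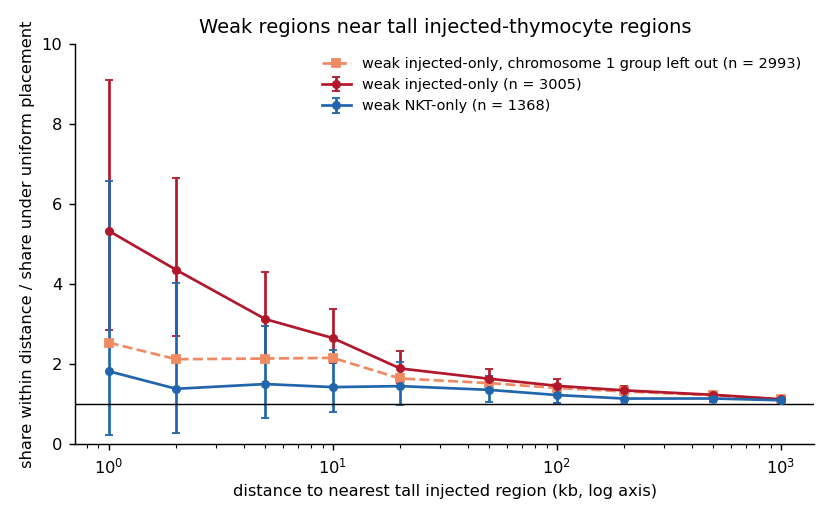
Share of weak regions within a given distance of a tall injected-thymocyte region, divided by the share under uniform placement (vertical axis), against that distance in kb (horizontal log axis). Bars are 95% exact binomial intervals of the share, drawn for the solid lines. Weak NKT-only regions were chosen to overlap no injected-thymocyte region, which limits their shortest distances in advance. Members start at 5.33 within 1 kb and fall to 1.12 within 1000 kb, and leaving out the chromosome 1 group lowers the first value to 2.54.

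Part of the closest pairs came from 1 locus. When injected-thymocyte regions of any height were chained at 10 kb, the largest group was chr1:90108246-90206910, with 55 regions over 98.7 kb: 34 tall regions, 12 members, 6 weak unshared regions at or above the control limit and 3 weak regions shared with NKT cells at any control density. The control signal was high there. Its 12 members had 6 to 81 control tags (median 18) beside 16 to 183 ChIP tags (median 37.5), and their control tags amounted to 37.8 per kb, against 15.5 over all members. The 34 tall regions had a median control density of 3.64 and a median of 18.5 control tags, and the NKT list had 12 regions in the same stretch. All 12 members lay within 10 kb of a tall region. Without this group 50 of 2993 members, or 1.67% (1.24% to 2.20%), did so, 2.16 times the uniform share of 0.775%. Within 1 kb, 6 members were left, 2.54 times the uniform share in place of 5.33. No weak NKT-only region lay in the group, and their ratio within 10 kb became 1.43 (0.804 to 2.35). The interval of their share, 1.10% (0.615% to 1.80%), overlapped that of the members without the group. For tall regions the share with another tall region within 10 kb fell from 7.68% to 4.52% (3.32% to 6.01%), 5.47 times the uniform share in place of 9.02. Of the 38 weak shared regions with a control density under 3, 1 lay in the group, and of the others 2 of 37 were left within 10 kb and 11 of 37, or 29.7% (15.9% to 47.0%), within 100 kb. Among the 50 members left within 10 kb, some neighbours shared 1 tall region. These were chr4:146710883-146711012 and chr4:146711079-146711257, chr16:32870457-32870606 and chr16:32875083-32875221, and chrX:5201648-5201785 and chrX:5201856-5201974. So did chrX:166435069-166435679 and chrX:166435721-166436085, with 7 and 2 control tags, near a tall region with 10. In the same stretch, chrX:166424631-166424952 had 10 control tags and stood 2112 bp from a tall region with 40. The part that the raised control signal has in these regions was not tested.

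Named by ChIP tags, 4 of the 5 richest members stood in this locus. The richest was chr1:90128172-90130234, 2063 bp wide, with 183 ChIP tags, 81 control tags and a deposited tag enrichment of 1.68. It was followed by chr1:90142088-90143024 with 71 and 24 tags, chr1:90200543-90201242 with 68 and 41, and chr1:90151903-90152552 with 51 and 23. The remaining one, chr6:146526424-146526927, had 46 ChIP tags and no control tag, with an enrichment of 7.50, and its nearest tall region was 752 kb away. The 3 tall regions with most members within 10 kb, 6 each, were also in the locus: chr1:90154767-90155336, chr1:90154278-90154640 and chr1:90147522-90148334.

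The 5 members closest to a tall region had only 24 to 78 bp between the edges of the 2 regions. They do not stand for all 62 members within 10 kb, of which 49 lay at 1 to 10 kb. At chr15:85464857-85465192 the member reached 12.4 in density from 31 ChIP tags without control tags, and the tall region chr15:85465233-85465363, 181 bp away, had 13.07 from 18 tags. The member was thus the lower of the 2 by density and held more tags. It was 336 bp wide with a strand shift of 185 bp, and 40 bp lay between the edges of the 2 regions. At chr13:104899394-104899528 a member of 12.7 stood 191 bp from chr13:104899553-104899734, which had 19.8. At chr1:132612308-132612428 a member of 10.1 with 15 tags and no control tag stood 356 bp from chr1:132612507-132612843, which had 21.95 with 49 tags and was shared with NKT cells. The other 2 of the closest 5, chr1:90146408-90146645 at 263 bp and chr1:90195724-90195839 at 324 bp, belong to the chromosome 1 group and had 17 and 8 control tags. At the other end, chrX:110453030-110453181, with a density of 12.99, 17 ChIP tags and 7 control tags, was 26181 kb from the nearest tall region.

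Nearness to a tall region rose with the tags of the member. Under 14 ChIP tags 3 of 687 members, or 0.437% (0.0901% to 1.27%), lay within 10 kb of a tall region, against 0.771% under uniform placement. The share was 1.19% at 14 and 15 tags, 1.505% at 16 and 17, 3.12% (1.76% to 5.10%) at 18 to 21, and 11.8% (7.56% to 17.4%) at 22 or more. Without the chromosome 1 group the last share was 6.82% (3.57% to 11.6%), or 12 of 176 members, and its interval still lay above that of the lowest class. By density the share was 1.32% at 10 to under 10.5 and 6.67% (3.24% to 11.9%) at 12.5 to under 13. The latter was 4.11% (1.52% to 8.73%) without the group, and its interval then overlapped the 1.04% (0.522% to 1.86%) of the lowest class. By width the share was 0.903% (0.294% to 2.09%) at 98 to under 120 bp and 14.9% (8.56% to 23.3%) at 300 bp or more. Without the group these were 0.723% (0.197% to 1.84%) and 7.53% (3.08% to 14.9%). Members with more tags were also wider, and the parts of tags and width were not tested.

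Control tags showed both ends. Members without a control tag lay near a tall region in 4.02% (2.27% to 6.55%), those with 3 control tags in 0.531% (0.110% to 1.54%) and those with 6 or more in 12.4% (7.64% to 18.7%). The last share fell to 4.96% (2.02% to 9.96%) without the chromosome 1 group, while the first was the same, since no member of the group lacked control tags. Read the other way, members without a control tag made up 8.60% of those farther than 1000 kb from a tall region, 14% at 200 to 1000 kb, 18.7% at 50 to 200 kb and 22.5% at 10 to 50 kb. Over the same classes the median density stayed between 10.7 and 10.9 and the median width went from 138 to 155 bp.

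**Figure D4:**
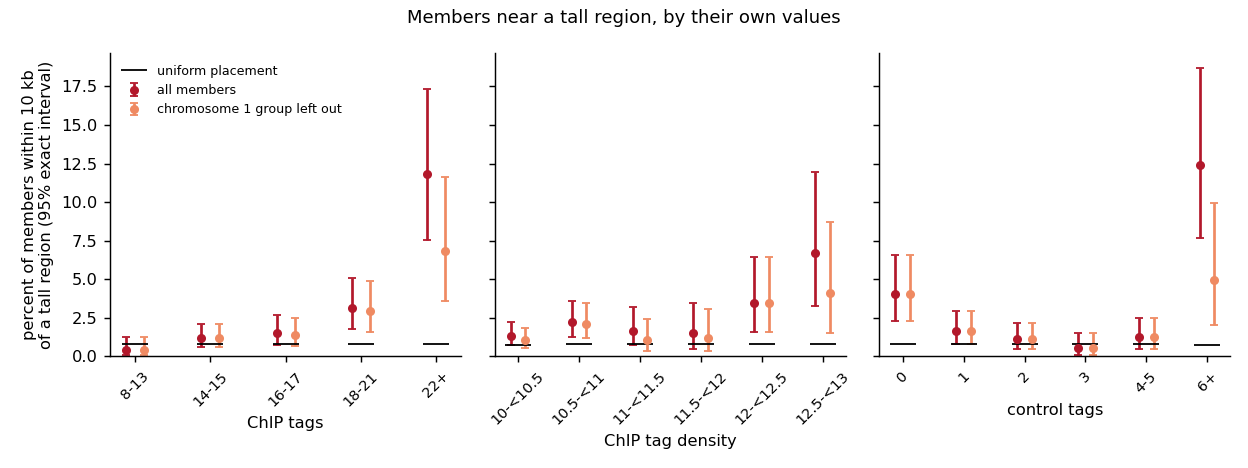
Percent of members within 10 kb of a tall injected-thymocyte region (vertical axis, 95% exact binomial intervals) by the member's ChIP tags, ChIP tag density and control tags, with and without the chromosome 1 group, and the share under uniform placement as black dashes. Among the classes of ChIP tags the share is highest at 22 or more, 11.8% and 6.82%. Classes of width are not drawn.

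Seen from the tall regions, 80 of 1029, or 7.77% (6.21% to 9.58%), had at least 1 member within 10 kb, against 2.36% under uniform placement of the members. Without the chromosome 1 group it was 51 of 995, or 5.13% (3.84% to 6.68%). In that count the share did not rise with the height of the tall region: 4.11% at 13 to under 15, 6.60% at 15 to under 20, 5.90% at 20 to under 40, and 0 of the 61 regions at 40 or more, with an upper limit of 5.87%. Of tall regions shared with NKT cells 5.50% (3.24% to 8.66%) had a member nearby, and of the others 4.96% (3.46% to 6.86%), with overlapping intervals. Tall regions with a control density of 3 or more had a member nearby in 6 of 40, or 15% (5.71% to 29.8%).

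Members were spread thinly among themselves. The nearest other member was a median of 280 kb away (267 to 293 kb), and 106 members, or 3.53% (2.90% to 4.25%), had one within 10 kb, against 2.34% if the other members of the chromosome were placed uniformly, a ratio of 1.51. Within 100 kb the shares were 23.1% and 21.04%, and within 1000 kb 89.95% and 90.2%. Without the chromosome 1 group, 95 of 2993 members, or 3.17% (2.58% to 3.87%), had another within 10 kb, 2.33% under uniform placement. Chaining members at 10 kb left 2899 on their own, 46 pairs, 2 groups of 3 and 1 group of 8.

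Of these groups 5 were named, the 3 with more than 2 members and, of the 46 pairs, the 2 with most ChIP tags. The group of 8, chr1:90142088-90166779, and the group of 3 at chr1:90191319-90201242 lie in the chromosome 1 locus, with 320 ChIP against 133 control tags and 109 against 55. The other group of 3 was chr16:18415821-18426951, whose members had densities of 10.5, 10.6 and 10.9, with 14, 15 and 19 ChIP tags and 2, 2 and 0 control tags. Its nearest tall region was 33.5 kb away and no NKT region lay within 10 kb. The pair at chrX:166435069-166436085 had 42 and 20 ChIP tags against 7 and 2 control tags and shifts of 164 and 183 bp, with a tall region 6.22 kb away. That tall region had 29 ChIP tags and 10 control tags. The NKT region nearest to the first member, 4.14 kb away, had 184 ChIP tags and 242 control tags. The pair at chr6:146518748-146526927 had 14 and 46 ChIP tags, 1 control tag in all and shifts of 91 and 74 bp, and the nearest tall region was 744 kb away. The chromosome 6 and 16 groups thus had little control signal, unlike those on chromosome 1.

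A small share of members stood beside an NKT region without touching it. The rule removed every region that overlapped an NKT region, so the closest distances were limited in advance. The uniform share does not allow for this. Within 10 kb of an NKT region there were 74 members, or 2.46% (1.94% to 3.08%), 1.59 times the uniform share of 1.55%, and within 1 kb there were 8, or 0.266% (0.115% to 0.524%), beside a uniform 0.158%. Without the chromosome 1 group 65 of 2993, or 2.17% (1.68% to 2.76%), were within 10 kb, 1.41 times the uniform share, and 6 within 1 kb. The closest was chr8:89477660-89477786, 82 bp from the edge of an NKT region of density 13.3, with summits 198 bp apart and shifts of 96 bp in the member and 36 bp in the NKT region. Next came chr1:132612308-132612428, already named beside a tall site, with summits 334 bp apart. It was followed by chr15:38230563-38230706, 437 bp from an NKT summit and 487 bp from a tall injected region of 38.8. These last regions thus flank sites that the tall part of the injected-thymocyte list and the NKT list both hold.

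Members stood at similar numbers per Mb on the autosomes and were sparser on the X chromosome. They numbered 1.04 to 1.35 per Mb of listed span on the autosomes, 1.21 over all of them, and 0.773 per Mb on the X (125 members). Tall regions varied more, from 0.266 to 0.657 per Mb on the autosomes, with 0.423 over all, and 0.130 on the X (21 regions). There were therefore 2.86 members per tall region on the autosomes and 5.95 on the X, with 1.97 on chromosome 11 and 4.38 on chromosome 14. Chromosome 2 had the most members per Mb and chromosome 18 the fewest of the autosomes. Control tags per member were alike, with means of 2.48 on the autosomes and 2.46 on the X. The sex of the mice is not given in the labels, and the part of X copy number in these values was not tested.

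**Figure D5:**
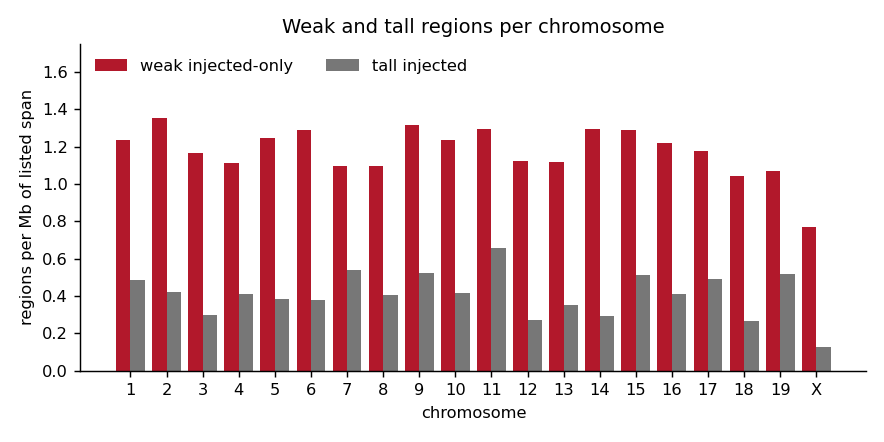
Weak injected-only regions and tall injected-thymocyte regions per Mb (vertical axis) between the first and last listed summit of each chromosome (horizontal axis). Weak regions lie between 1.04 and 1.35 per Mb on every autosome and at 0.773 on the X, while tall regions range more widely, from 0.266 to 0.657 on the autosomes.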

How the data were processed

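Reads had been aligned to mm9 with Bowtie, per the submitters' processing notes; its version, the peak caller, the control library and the filters are not given in the sources used here. Library depths are unknown. The deposited lists hold region and peak lines. Density and control density are the authors' signal values at the summit, with unstated scaling, and the deposited fold is their ratio, or the ratio to 1 where the control is lower. Region lines give deposited tag counts. Strand shift was taken from the peak lines and is 26 bp or more there. Region numbers follow falling density. Of the 3757 numbers from 1219 to 4975, which cover the weak part of the list, 570 (15.2%) are absent from the list. Coordinates are mm9 as listed. The gene and promoter tables at hand are of GRCm38, so no genes were assigned and no sequence is printed.

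Members, limits and alternatives were chosen with earlier results of these data known. Distances, exact binomial and order-statistic intervals (95%) were computed in Python 3.11.15 with scipy 1.17.1, numpy 2.4.6 and pandas 2.3.3, and tested on simulated positions. Named positions follow 1 rule: the 5 on each side of the density limit, the 5 with most tags, the 5 closest to and the 1 farthest from a tall region, the 5 chains with most members (ties by ChIP tags), the 3 tall regions with most members, the 3 longest and shortest shifts, and the 3 closest to an NKT region. Positions at the control limit and the widest chromosome 1 group were named after their values were seen.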

Additional observations from a re-analysis of the deposited data

How the results depend on the processing

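Of 46 alternatives to the 4 main values, 34 stayed within the interval reported (or 1.5 times the count) and 12 moved. The median strand shift was 86 or 87 bp in every alternative run, the region-line value included. The number of members, 3005, became 1801 with a control density under 1 and 373 with no control tag, by construction, and ranged from 2593 to 3293 with density limits of 12 and 15. The share within 10 kb of a tall region, 2.06%, became 4.02% among members with no control tag, 0.632% for tall regions of density 20 or more, 1.23% within 5 kb and 6.06% within 50 kb. In an alternative added after seeing the data, leaving out the chromosome 1 group and members with more than 5 control tags gave 1.51%. In all 16 alternatives the share was above the uniform one, by 1.63 to 5.03 times. The share with another member within 10 kb, 3.53%, became 4.29% with no limit on control density, 2.11% with a control density under 1, 2.13% within 5 kb, 12.8% within 50 kb and 0 of the 373 members with no control tag (uniform share 0.299%). It was above the uniform share in 12 of 13 alternatives, up to 1.81 times. Distances between edges gave the same counts as distances between summits. No paired analysis was possible because there is 1 library per condition. A median member rests on 15 ChIP tags, and absence from the NKT list means only that no listed region overlapped. The NKT tag count at members was not analysed here.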

Other observations

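Stretches without a member were also listed. Neighbouring members of a chromosome lay a median of 0.548 Mb apart, and 20 of 2985 gaps were longer than 5 Mb. The longest lay on chromosome 8 between summits at 45192684 and 52863128, 7.67 Mb with 1 tall injected region and 8 NKT regions inside. The next was on chromosome 7 between 6238014 and 13563599, 7.33 Mb with 2 tall and 5 NKT regions. The third, on chromosome 7 between 39212793 and 46531385, 7.32 Mb, held neither a tall nor an NKT region. On the X chromosome 4 of the 10 longest gaps were found, of 5.62 to 6.89 Mb, with 10 NKT regions in all.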
